A study of Mus musculus with 27 samples.

Results

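The comparison described here is that of naive lin28Tg with naive WT CD8 T cells of the mouse, 3 libraries a side. These 6 libraries belong to 27 that measured mRNA by paired-end sequencing in 3 genotypes, WT, lin28Tg and let-7Tg, at 3 stages, naive cells, cells activated for 12 h and day 5 cytotoxic T lymphocytes (CTLs). All genes entered. The naive table lists 35275 genes, of which 22527 had a read in a naive library and 13277 had enough reads to be tested.

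Every mouse carried the P14 transgene, a T cell receptor that recognises the gp33 peptide of the lymphocytic choriomeningitis virus, and the transgenic lines were kept on a Rag2-/- background, in which no other receptor is rearranged. WT cells carried no further transgene. lin28Tg cells carried a Lin28b transgene, labelled Lin28bTg, which is active from the thymus onward, so that the cells had developed with it. let-7Tg cells, used here only as a further group in the fit and for side by side values, carried a let-7g transgene that doxycycline turns on. Doxycycline was given in the drinking water for 4 days to experimental mice, controls included. Mice of both sexes, 6 to 10 weeks old, were used. Naive cells were lysed in TRIzol without activation. The promoter of the Lin28b transgene, the purity of the cells and the number of mice behind a library are not given in the sources used here.

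The let-7 family are short RNAs that pair through their seed, bases 2 to 8 of the mature RNA, with sites in the 3′ UTRs of mRNAs and lower their stability and translation. Lin28a and Lin28b bind let-7 precursors in the loop between the arms of the hairpin and block their maturation. Lin28a recruits the terminal uridyl transferases Tut4 and Tut7. Naive T cells are quiescent, small cells that circulate through lymphoid organs, hold high let-7 and lose it on activation. The comparison thus asks what a T cell that has not met its antigen expresses when a let-7 inhibitor is present. Mature let-7 itself was not measured, since the libraries are of mRNA.

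The mature members are shown with the seed in capitals, because they show that nearly the whole family shares it. The sequences are those of RefSeq for GRCm38.p6, which lists 11 mature names, and 10 of them share the seed of let-7a. In let-7j the last base of the seed differs.
let-7a-5p: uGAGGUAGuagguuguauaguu
let-7b-5p: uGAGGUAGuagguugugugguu
let-7c-5p: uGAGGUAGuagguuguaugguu
let-7d-5p: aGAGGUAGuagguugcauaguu
let-7e-5p: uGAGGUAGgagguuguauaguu
let-7f-5p: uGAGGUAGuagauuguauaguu
let-7g-5p: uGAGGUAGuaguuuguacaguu
let-7i-5p: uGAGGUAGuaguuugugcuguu
miR-98-5p: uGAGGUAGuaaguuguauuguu
let-7k: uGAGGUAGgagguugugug
let-7j: uGAGGUAUuaguuugugcuguuau

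Of the 12 precursor genes with the shared seed, 8 hold the letters GGAG, the motif that Lin28 is known for binding, between the arms, and 9 hold them anywhere in the hairpin. Over all 1005 hairpins of the table the letters occur in 44.5%. The precursor of let-7g, the member of the let-7 transgene, holds the motif, in capitals, and that of let-7b does not.
Mirlet7g (chr9:106178840-106178927, plus strand): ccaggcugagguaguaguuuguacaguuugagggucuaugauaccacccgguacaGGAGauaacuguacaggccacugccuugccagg
Mirlet7b (chr15:85707319-85707403, plus strand): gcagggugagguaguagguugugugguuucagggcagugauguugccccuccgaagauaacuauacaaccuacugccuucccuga

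Levels are in FPKM, fragments counted per kilobase of gene and scaled to the size of the library, and the 3 values of a group are always given in the order of their replicate numbers. Differences are log2 fold changes of lin28Tg over WT on log2(scaled FPKM + 0.5), with their SE, tested with limma over all tested genes with Benjamini-Hochberg adjustment. A gene was called a DEG at an adjusted p below 0.05, without a minimum fold.

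The lin28Tg libraries were the deepest, with 16037739 to 23591069 counted reads against 14120577 to 15761667 in WT, so that 10 reads on a gene of 2 kb stand for 0.212 to 0.312 FPKM in lin28Tg and 0.317 to 0.354 in WT. The 3 lin28Tg libraries also differed among themselves in RNA of cells other than T cells. Of 18 myeloid markers the summed level was 325, 233 and 185 FPKM in the WT libraries and 596, 1892 and 1032 FPKM in the lin28Tg libraries. Library 2 of lin28Tg held the most and library 1 the least, and all 3 lay above WT and above the let-7Tg libraries at 169.6 to 277 FPKM. All 17 tested markers of this list were called higher. With lin28Tg library 1 as the only lin28Tg library, 4 of 17 were called higher. Markers of dendritic cells had the same order of libraries (13 of 13 higher, summed 641 to 974 FPKM in WT and 2142 to 5013 in lin28Tg). So did the 11 of NK cells, at 137 to 223 and 261 to 648 FPKM, with 7 higher and 1 lower, and those of red cells, which were also highest in lin28Tg library 2 but lowest in library 3, at 153 to 292 and 494 to 1995 FPKM, with 4 of 5 higher. Without WT library 2, WT library 3, lin28Tg library 2 or lin28Tg library 3 the NK markers called higher numbered 3. Those of red cells numbered 0 to 2 without WT library 2, WT library 3, lin28Tg library 1 or lin28Tg library 2. The 13 stromal and endothelial markers, whose sum is mostly Pecam1, summed to 67.1 to 68.3 FPKM in WT and 51.4 to 77.96 in lin28Tg, with 8 of 10 tested higher and 1 lower. Of 10 B cell markers only 4 could be tested, 2 higher and 1 lower, and the defining Ms4a1 and Pax5 were too low to test. In bulk RNA, more cells of a type and more RNA per cell cannot be told apart.

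The labels call the cells T cells, and T cell markers were abundant in every library. The summed level of 11 of them was 7712, 8808 and 8525 FPKM in WT and 6812, 6231 and 6459.5 FPKM in lin28Tg. These sums did not overlap between the groups, and 6 of 11 were called lower. Over all tested genes 15.8% were lower, and the groups did not overlap in 50.7%. With 1 library left out 4 to 7 of the 11 were lower. The median log2 fold change was -0.41, and -0.27 with lin28Tg library 1 as the only lin28Tg library. Cd8a and Cd8b1 were not among those called lower (log2 fold changes -0.16 and -0.16). All 3 lin28Tg libraries held both Xist, the RNA of the inactive X chromosome, at 68.2 to 115 FPKM and the Y-linked Ddx3y at 13.02 to 37.4 FPKM, whereas WT library 1 held Ddx3y at 49.1 FPKM with Xist at 0.0508 and the other two WT libraries the reverse. Albumin (Alb), a transcript of liver, was at 35.7 and 8.65 FPKM in lin28Tg libraries 1 and 2 and was not read in the other naive libraries. These genes were looked up after their values were seen. For each gene group below, the count or the median is also given with library 1 as the only lin28Tg library where it changes what is said.

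**Figure D1:**
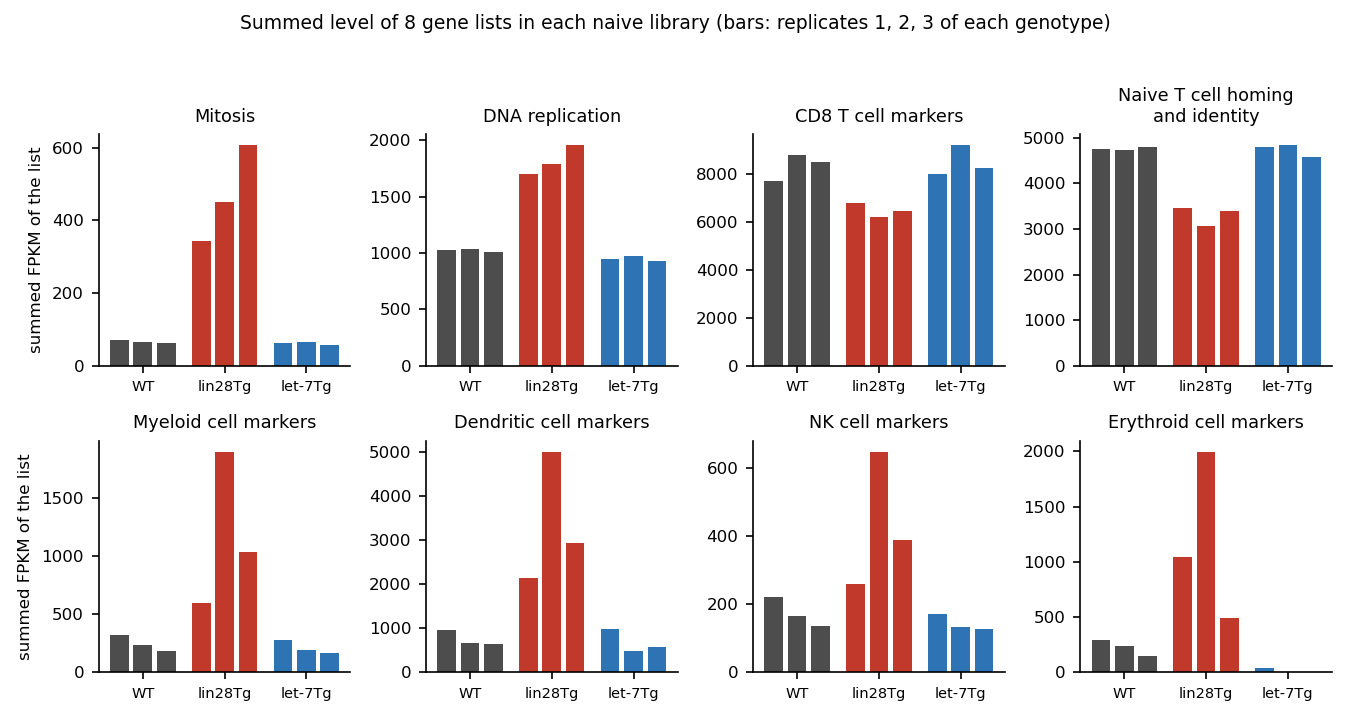
Summed FPKM of 8 gene lists in each of the 9 naive libraries, 1 bar per library in the order of the replicate numbers, WT in gray, lin28Tg in red and let-7Tg in blue. Mitosis and DNA replication genes were high in all 3 lin28Tg libraries and lowest in library 1, while myeloid, dendritic, NK and red cell markers peaked in lin28Tg library 2 and the T cell lists lay below WT in all 3.

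The transgene was read in the libraries that the labels name. Lin28b (chr10:45376620-45486395, minus strand, GRCm38), whose protein blocks let-7 maturation, was at 67.9, 56.4 and 66.1 FPKM in lin28Tg, from 5725 to 7189 reads. In WT it was at 0.0587, 0 and 0 FPKM, from 5, 0 and 0 reads, and in let-7Tg at 0.0358, 0 and 0 FPKM. The lowest lin28Tg library held 961 times the level of the highest WT library, and the difference had the smallest adjusted p of all genes (log2 fold change 6.92, SE 0.13, adjusted p = 4.41e-09, a value that depends on the added 0.5 because WT is at the floor). A count of 0 still allows 3 reads, 0.0393 FPKM in WT libraries 2 and 3. Lin28a, the other Lin28 gene, was too low to test, at 0 in WT and 0.103 to 0.139 FPKM in lin28Tg.

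Of 16 tested genes of the machinery that makes and uses miRNAs 3 were called higher, Lin28b included, and 1 lower, near the 19.0% and 15.8% of all tested genes. Ago4, which binds mature miRNAs, was at 0.321, 0.358 and 0.199 FPKM in WT and 0.745, 2.01 and 1.46 in lin28Tg (log2 fold change 1.18, SE 0.25, adjusted p = 0.00606). Prkra, a partner of Dicer, was at 2.73, 2.38 and 2.75 FPKM in WT and 3.84, 8.92 and 5.81 FPKM in lin28Tg (log2 fold change 0.98, SE 0.23, adjusted p = 0.0106). Both were highest in lin28Tg library 2, and neither was called with library 1 alone (adjusted p = 0.139 and 0.147). Drosha, Dgcr8, Dicer1, Xpo5, Tut4 and Tut7 had log2 fold changes of 0.01, 0.06, -0.08, -0.11, -0.20 and -0.14 and were not called.

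In all, 4629 of 13277 tested genes were DEGs (34.9%). Levels in lin28Tg were higher for 2527 (19.0%) and lower for 2102 (15.8%), and 5983 genes had an unadjusted p below 0.05. The counts of every gene list are to be set beside these 2 shares. The 2 directions differed in size. Over 2-fold, 1245 genes were higher and 104 lower, and over 4-fold 323 and 8. The median log2 fold change was 0.98 among the DEGs with higher levels, -0.42 among those with lower levels and -0.04 over all tested genes. The levels of the 3 lin28Tg and 3 WT libraries did not overlap in 6735 of the tested genes (50.7%). Without scaling between libraries the calls were 2846 higher and 1442 lower, 66.4% higher in place of 54.6%. The count of lower genes was 1181 without WT library 2, 1243 without WT library 3 and 1380 without lin28Tg library 2. With lin28Tg library 1 as the only lin28Tg library, 661 genes were called higher (4.98%) and 353 lower (2.66%), and 990 of these 1014 were among the 4629. Of the 1245 genes over 2-fold higher, 868 were highest in library 2 and lowest in library 1, the order of the myeloid markers, and 204 were highest in library 3 and lowest in library 1. The part of RNA from other cells in these counts was not tested gene by gene.

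**Figure D2:**
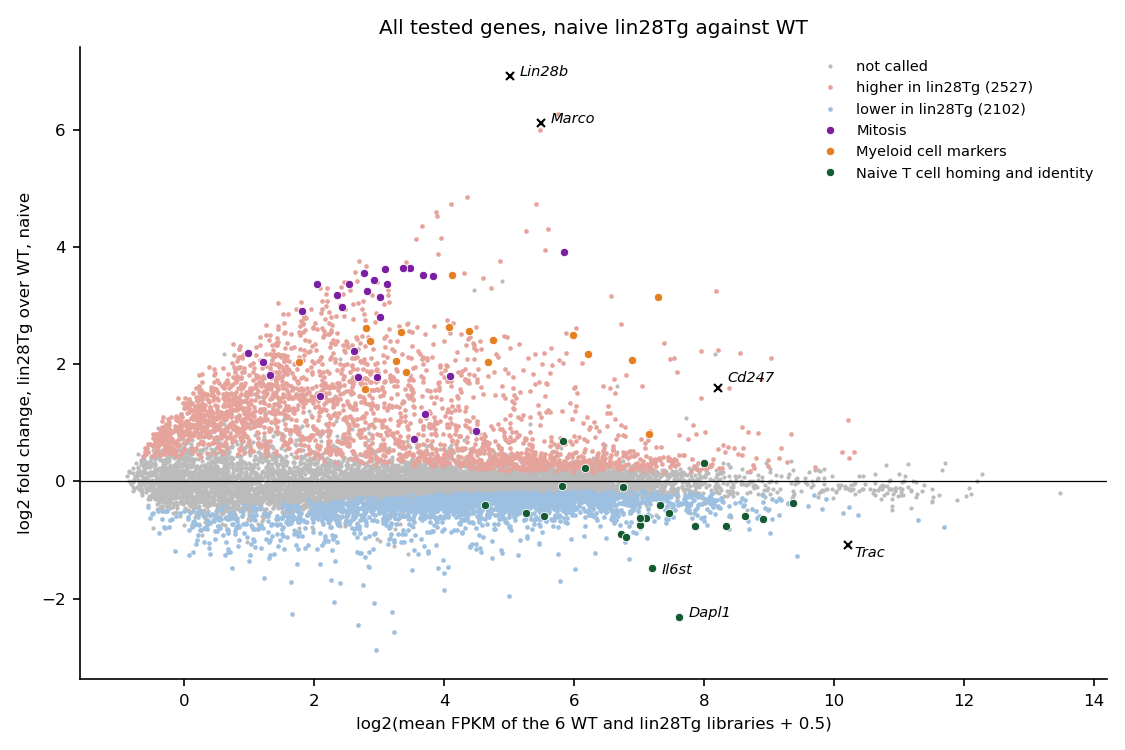
Log2 fold change of lin28Tg over WT against the mean level of each tested gene in the 6 libraries, both on log2 scales, with DEGs in red and blue and the members of 3 lists as larger points. Differences over 2-fold were mostly upward, most mitosis genes lay above 1.5 and the naive T cell genes lay mostly below 0 at high levels.

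**Figure D3:**
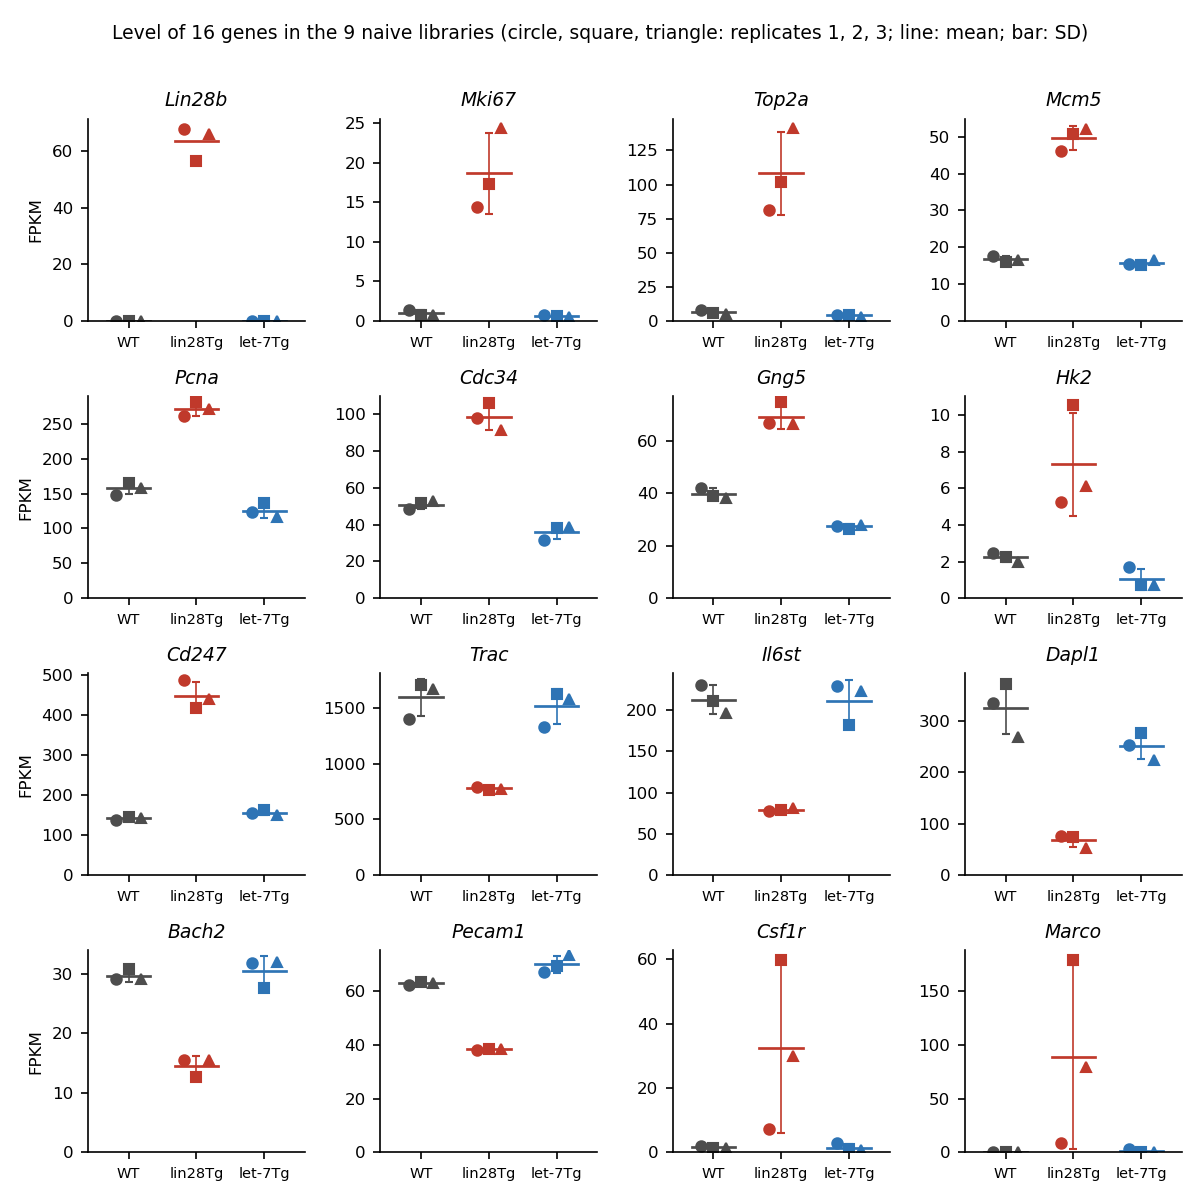
FPKM of 16 genes in the 9 naive libraries, with the mean as a line and the SD as a bar, each y axis starting at 0. Lin28b, cell cycle genes, Cdc34, Gng5 and Cd247 lay above WT in each lin28Tg library and Trac, Il6st, Dapl1, Bach2 and Pecam1 below, while Csf1r and Marco varied widely among the lin28Tg libraries.

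Genes that the study named as let-7 targets in naive cells were higher as a group. Of 13, 11 were called higher and none lower against 19.0% and 15.8% of all tested genes, and the median log2 fold change was 0.42. The study took these genes from those that rose in lin28Tg and fell in let-7Tg in these same libraries, so that their direction is no independent evidence. On library 1 alone 3 of 13 were called, at a median of 0.49.

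Cdc34 (chr10:79682195-79688398, plus strand), a ubiquitin-conjugating enzyme that acts on cell cycle inhibitors, was at 48.3, 51.5 and 52.6 FPKM in WT and 98.1, 106 and 91.6 FPKM in lin28Tg (log2 fold change 0.89, SE 0.09, adjusted p = 0.000253). In let-7Tg it was at 31.8, 38.3 and 38.4 FPKM. The 3 genotypes did not overlap, with lin28Tg highest and let-7Tg lowest.

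Gng5, a gamma subunit of G proteins, was at 42.2, 39.2 and 38.1 FPKM in WT and 66.8, 74.7 and 66.5 in lin28Tg (log2 fold change 0.73, SE 0.07, adjusted p = 9.91e-05). Efhd2, a calcium-binding protein, was at 62.1, 56.4 and 59.2 FPKM in WT and 102, 154 and 109 FPKM in lin28Tg (log2 fold change 0.95, SE 0.14, adjusted p = 0.00139). Hk2, the inducible hexokinase of glycolysis, was at 2.46, 2.26 and 1.99 FPKM in WT and 5.25, 10.5 and 6.15 FPKM in lin28Tg (log2 fold change 1.41, SE 0.28, adjusted p = 0.00524). Gng5 and Efhd2 were called with library 1 alone as well, Hk2 was not (adjusted p = 0.1). The other called members, Nme4, Ostf1, Scd2, Dpp3, E2f6, Ccr7 and Tmed5, differed by 0.28 to 0.58 on the log2 scale. Abcb9 and Surf4 were not called, at 0.30 and 0.19.

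A longer list of let-7 targets from the literature held 44 tested genes, with 24 higher, 2 lower and a median of 0.35. Over all tested genes 19.0% were higher and 15.8% lower. With 1 library left out 20 to 25 of the list were higher. With lin28Tg library 1 as the only lin28Tg library the median was 0.34. Cdc34, Gng5, Ccr7 and E2f6 are in both lists of targets and count among the 24, so that the lists are not independent. Rrm2 is also in the list of DNA replication, and Eomes in that of memory-phenotype and effector cells. Rrm2, the regulated subunit of ribonucleotide reductase, which makes the building blocks of DNA, was at 4.24, 2.93 and 2.80 FPKM in WT and 41.7, 52.2 and 67.5 FPKM in lin28Tg (log2 fold change 3.77, SE 0.18, adjusted p = 6.65e-06). Arid3a, a DNA-binding factor, was at 3.04, 2.38 and 3.23 FPKM in WT and 6.98, 8.65 and 8.14 FPKM in lin28Tg (log2 fold change 1.27, SE 0.14, adjusted p = 0.000267). Both lay far above WT in each lin28Tg library. Among other members called higher were the RNA-binding protein Igf2bp3, the cyclin Ccnd1 and the nuclease Dna2, with log2 fold changes of 0.92, 2.30 and 2.05. Insr, the insulin receptor, was lower (log2 fold change -0.38, SE 0.11, adjusted p = 0.0214). Myc, a driver of cell growth, was at 79.7, 77.3 and 82.7 FPKM in WT and 80.8, 88.7 and 72.3 FPKM in lin28Tg, groups that overlapped, and was not called (log2 fold change -0.05, SE 0.08, adjusted p = 0.668).

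The 3′ UTRs were searched on the sense strand for CTACCTCA, the match to the seed followed by A, in the longest coding transcript of each gene in GENCODE M21. It occurred in 3.22% of 11821 tested genes with a 3′ UTR, in 4.02% of those called higher and in 2.21% of those called lower. Per 10 kb of UTR there were 0.319 matches in genes called higher, 0.146 in those called lower and 0.231 in those not called. Of genes without a match 20.4% were called higher and 15.9% lower, and of the 366 genes with 1 match 25.7% and 10.9%. Their median log2 fold changes were -0.03 and 0.03, and that of the 15 genes with 2 or more was 0.18. Genes with matches had longer UTRs, with medians of 2193 bases at 1 match and 924 bases at none. The match was found in 6 of the 13 targets named by the study and in 22 of the 44 from the literature. The shorter CTACCTC, contained in it, was found in 10 and 37, against 9.46% of all tested genes. The study drew its targets from TargetScan predictions, and the other list holds reported targets of let-7. Matches in both lists are thus no independent evidence.

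The sites of genes described above are shown with the match in capitals, since they let a reader set the site beside the seed, which pairs with its first letters in reverse order. Insr, lower in lin28Tg, holds the same letters in its UTR. A match is a stretch of letters, not a measured site.
Cdc34 (chr10:79688113-79688134, plus strand): cctcaggcgacagaCTACCTCA
Efhd2 (chr4:141859170-141859191, minus strand): gccactgtgcgaatCTACCTCA
Dpp3 (chr19:4907504-4907525, minus strand): cttggactttggtgCTACCTCA
E2f6 (chr12:16826404-16826425, plus strand): tcacctagcgctctCTACCTCA
Rrm2 (chr12:24713348-24713369, plus strand): aaaaagctgtgtagCTACCTCA
Arid3a (chr10:79953896-79953917, plus strand): aggcaagtttctttCTACCTCA
Dna2 (chr10:62974070-62974091, plus strand): ggggggaaaaacttCTACCTCA
Igf2bp3 (chr6:49086787-49086808, minus strand): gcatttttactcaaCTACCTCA
Insr (chr8:3153198-3153219, minus strand): cttctcagtacagtCTACCTCA

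Cell cycle genes were higher in lin28Tg. All 28 listed genes of mitosis were tested and all 28 were called, with a median log2 fold change of 3.06 and a range from 0.72 to 3.92. Of 41 genes of DNA replication 32 were higher and none lower, at a median of 0.99. Summed over the list, mitosis genes were at 71.4, 66.05 and 62.7 FPKM in WT and 343, 451 and 606 FPKM in lin28Tg, and replication genes at 1030.5, 1038 and 1006 FPKM in WT and 1702, 1789.7 and 1954 FPKM in lin28Tg. With library 1 alone 26 of 28 and 23 of 41 were still called. The order among the lin28Tg libraries, highest in library 3 and lowest in library 1, held for all 28 mitosis genes and 22 of the 32 replication genes. It was not that of the myeloid markers, though library 1 was lowest in both. Which cells this RNA came from was not tested.

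Mki67, the marker of cycling cells, was at 1.43, 0.794 and 0.738 FPKM in WT and 14.4, 17.3 and 24.3 FPKM in lin28Tg (log2 fold change 3.64, SE 0.22, adjusted p = 1.65e-05). Top2a, which untangles DNA before division, was at 7.82, 6.05 and 5.13 FPKM in WT and 81.2, 102 and 141 FPKM in lin28Tg (log2 fold change 3.92, SE 0.22, adjusted p = 1.23e-05). Ccna2, cyclin A, was at 1.06, 1.004 and 1.13 FPKM in WT and 14.3, 20.1 and 26.5 FPKM in lin28Tg (log2 fold change 3.65, SE 0.20, adjusted p = 1.03e-05). Each lin28Tg library lay several times above the highest WT library, and library 3 was the highest in all 3 genes.

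Pclaf, a partner of the replication clamp, was at 1.41, 0.905 and 0.904 FPKM in WT and 19.9, 28.4 and 38.8 FPKM in lin28Tg (log2 fold change 4.15, SE 0.22, adjusted p = 1.03e-05). Stmn1, which destabilises microtubules, was at 18.2, 16.9 and 17.8 FPKM in WT and 134, 169 and 214 FPKM in lin28Tg (log2 fold change 3.17, SE 0.16, adjusted p = 6.65e-06). E2f2, a transcription factor of S phase genes, was at 4.42, 4.41 and 4.05 FPKM in WT and 24.1, 28.1 and 34.1 FPKM in lin28Tg (log2 fold change 2.54, SE 0.14, adjusted p = 1.23e-05). None of the 3 overlapped between the groups, as in 50.7% of all tested genes. Genes named for the smallest adjusted p were taken only from those without overlap.

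Genes that license and copy DNA were higher in lin28Tg by a smaller median fold than the mitosis genes, though Cdc6 and Cdc45 differed by 2.88 and 2.40. Mcm5, a subunit of the replicative helicase, was at 17.6, 16.1 and 16.6 FPKM in WT and 46.1, 50.8 and 52.2 FPKM in lin28Tg (log2 fold change 1.48, SE 0.07, adjusted p = 6.65e-06), and Mcm2 at 29.2, 25.5 and 27.9 FPKM in WT and 60.6, 60.6 and 64.8 FPKM in lin28Tg (log2 fold change 1.10, SE 0.07, adjusted p = 1.83e-05). The clamp Pcna was at 149, 165 and 159 FPKM in WT and 262, 281 and 272 FPKM in lin28Tg (log2 fold change 0.73, SE 0.08, adjusted p = 0.000292). In FPKM, these 3 genes lay above Mki67, Top2a and Ccna2 in each WT library. Gmnn, geminin, which blocks a further round of licensing, was at 8.51, 8.43 and 8.51 FPKM in WT and 26.98, 30.2 and 34.4 FPKM in lin28Tg (log2 fold change 1.72, SE 0.09, adjusted p = 9.03e-06). Uhrf1, which carries DNA methylation through replication, was at 10.98, 10.1 and 11.1 FPKM in WT and 50.4, 56.9 and 70.9 FPKM in lin28Tg (log2 fold change 2.34, SE 0.12, adjusted p = 9.03e-06). Cdca7 was at 15.004, 15.2 and 13.9 FPKM in WT and 52.8, 56.9 and 65.7 FPKM in lin28Tg (log2 fold change 1.90, SE 0.09, adjusted p = 6.65e-06). The replicates of each group lay close together in these genes. Genes named for a small adjusted p tend to have a small spread by that choice. Cdt1, Rpa1, Pold2, Pola2 and Rfc1 were not called, at log2 fold changes of 0.10, 0.09, 0.12, 0.15 and -0.04. Tyms, which makes thymidylate, was higher (1.27), and Ezh2, the methyltransferase of Polycomb, was at 17.5, 20.2 and 20.9 FPKM in WT and 33.2, 36.04 and 46.96 in lin28Tg (log2 fold change 0.90, SE 0.13, adjusted p = 0.00142).

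Genes that hold T cells in quiescence were lower more often than not. Of 23 tested, 12 were lower and 2 higher against 15.8% and 19.0%, at a median of -0.32. Bach2, a repressor of effector genes, was at 29.03, 30.8 and 29.04 FPKM in WT and 15.5, 12.7 and 15.4 FPKM in lin28Tg (log2 fold change -1.06, SE 0.09, adjusted p = 7.23e-05). Foxo1, a factor needed for naive homeostasis, was at 45.97, 47.9 and 49.3 FPKM in WT and 33.1, 29.2 and 33.4 FPKM in lin28Tg (log2 fold change -0.64, SE 0.08, adjusted p = 0.000792). Foxp1, which keeps naive cells from dividing, was at 129.5, 146 and 152 FPKM in WT and 96.7, 80.2 and 99.5 FPKM in lin28Tg (log2 fold change -0.69, SE 0.09, adjusted p = 0.000794). No lin28Tg library reached a WT library in any of the 3. Tsc1, Pik3ip1, Btg1 and the inhibitor Cdkn1b were lower as well (-0.45, -0.69, -0.39 and -0.28). The 2 genes that were higher were Cdkn2c, an inhibitor of Cdk4 and Cdk6 that E2F factors induce (log2 fold change 2.09, SE 0.20, adjusted p = 0.000124), and Klf4, at 1.04, 1.11 and 0.722 FPKM in WT and 3.15, 9.66 and 4.58 in lin28Tg (log2 fold change 1.94, SE 0.32, adjusted p = 0.00219). Without WT library 2 there were 7 lower, and library 1 alone gave 3 lower and 2 higher.

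Genes of the homing and identity of naive T cells were lower in the same way. Of 22, all tested, 15 were lower and 2 higher, at a median of -0.59, and the list summed to 4754, 4735 and 4799 FPKM in WT and 3451, 3058 and 3403 FPKM in lin28Tg. In the fit of library 1 alone 10 were lower. Il6st, the signaling chain of the IL-6 receptor, was at 230.2, 211 and 196 FPKM in WT and 77.9, 78.4 and 81.02 FPKM in lin28Tg (log2 fold change -1.48, SE 0.08, adjusted p = 1.23e-05). Dapl1 was at 333, 370.4 and 269 FPKM in WT and 76.9, 74.1 and 53.2 FPKM in lin28Tg (log2 fold change -2.31, SE 0.17, adjusted p = 3.38e-05). Cd6 and Cd5, which restrain signaling by the receptor, were lower too, Cd6 at 283, 286 and 293 FPKM in WT and 179.6, 167 and 182 FPKM in lin28Tg, and Cd5 at 157, 160.5 and 161 FPKM in WT and 97.7, 97.8 and 101 FPKM in lin28Tg (-0.77 and -0.75). Il6st and Dapl1 in lin28Tg were below 0.5 of WT in every pair of libraries. S1pr1, through which T cells leave lymph nodes, and the factor Lef1 were also lower (-0.95 and -0.89), as were Tcf7 and Cd27 (-0.37 and -0.64). Ccr7, the receptor for entry into lymph nodes, and the integrin Itgae were higher (log2 fold change 0.31, SE 0.10, adjusted p = 0.032 for Ccr7 and log2 fold change 0.69, SE 0.22, adjusted p = 0.0338 for Itgae). The higher genes of this list numbered 0 without WT library 2, WT library 3, lin28Tg library 1 or lin28Tg library 2. Il7r was not called, at 0.23.

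The called genes of the T cell receptor complex were lower but for 1. Of 28 genes of the complex and its proximal signaling 11 were lower, 1 was higher and the median was -0.21. The 1 higher gene was Cd247 (chr1:165788681-165877277, plus strand), the zeta chain, at 138, 146 and 143 FPKM in WT, 488, 419 and 441 FPKM in lin28Tg and 156, 163 and 151 FPKM in let-7Tg (log2 fold change 1.59, SE 0.08, adjusted p = 6.65e-06). Its lin28Tg libraries differed little from each other, and library 1 alone gave 1.74 (adjusted p = 0.000491). Trac, the constant part of the alpha chain, was at 1402, 1704 and 1671 FPKM in WT and 793, 763 and 776 FPKM in lin28Tg (log2 fold change -1.09, SE 0.12, adjusted p = 0.000243). Cd3e was at 330.0, 359 and 351 FPKM in WT and 281, 245 and 262 FPKM in lin28Tg (log2 fold change -0.46, SE 0.09, adjusted p = 0.00394). The kinases Lck, Zap70 and Fyn were not called (-0.19, -0.25 and -0.003). Dgka, which removes the diacylglycerol that the receptor produces, was at 399.8, 411 and 440.1 FPKM in WT and 262, 218 and 264 FPKM in lin28Tg (log2 fold change -0.81, SE 0.10, adjusted p = 0.000476). Without WT library 2 or WT library 3 there were 7 lower, and library 1 alone gave 2 lower of the 28, and Cd247 was still higher.

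The variable and joining segments of receptor genes named here were lower as well. Trav14-1, of the family that the P14 alpha chain uses, was at 892, 1012 and 990.3 FPKM in WT and 417, 395 and 438 FPKM in lin28Tg (log2 fold change -1.27, SE 0.08, adjusted p = 2.23e-05), and Trbv13-3, of that of the beta chain, at 126, 135 and 216 FPKM in WT and 88.1, 71.9 and 103 FPKM in lin28Tg (log2 fold change -0.89, SE 0.21, adjusted p = 0.0114). These segments have near-identical relatives among which reads can be split. Traj20, Traj25 and Trbj2-5 were among the 5 largest falls by fold (-2.88, -2.45 and -2.56), but are very short and were read few times. The joining segments of the P14 receptor are not given in the sources used here. Calls were not counted over all tested segments.

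Immediate early genes, which receptor signaling induces within minutes, moved both ways, with 8 of 24 lower and 4 higher. Over all tested genes 15.8% were lower and 19.0% higher. Egr3 was at 20.4, 22.5 and 27.9 FPKM in WT and 6.05, 10.9 and 9.25 FPKM in lin28Tg (log2 fold change -1.47, SE 0.20, adjusted p = 0.00105). Nr4a1, whose product Nur77 is used as a reporter of receptor signaling, was at 29.9, 30.5 and 34.8 FPKM in WT and 10.2, 22.2 and 12.2 FPKM in lin28Tg (log2 fold change -1.20, SE 0.23, adjusted p = 0.0044). Egr1 was at 23.8, 19.004 and 25.5 FPKM in WT and 11.4, 14.1 and 13.5 FPKM in lin28Tg (log2 fold change -0.84, SE 0.16, adjusted p = 0.00458). The 3 genes were lower in each lin28Tg library, and with library 1 alone all 3 were called. Egr2, Cd69 and Ier2 were lower too (-1.04, -0.58 and -0.45). Atf3, Dusp1, Nr4a2 and Dusp5 were higher (1.19, 0.98, 0.83 and 0.51), none of which was called with library 1 alone, and 1 gene was higher without WT library 2, WT library 3 or lin28Tg library 2.

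Genes of memory-phenotype and effector CD8 T cells were mostly higher, beside the NK and myeloid markers that share some of them. Of 38 tested, 24 were higher and 2 lower, at a median of 1.23, and with library 1 alone 7 were higher and 1 lower. S100a4 was at 30.6, 21.4 and 28.8 FPKM in WT and 158, 229.8 and 165 FPKM in lin28Tg (log2 fold change 2.69, SE 0.23, adjusted p = 7.93e-05), and S100a6 at 22.7, 15.6 and 14.4 FPKM in WT and 116, 127 and 95.4 FPKM in lin28Tg (log2 fold change 2.61, SE 0.24, adjusted p = 9.96e-05). Il2rb, the chain that IL-2 and IL-15 share, was at 111, 101 and 108 FPKM in WT and 177, 162 and 160.1 FPKM in lin28Tg (log2 fold change 0.57, SE 0.07, adjusted p = 0.000588). These 3 genes were called with library 1 alone, as was the chemokine Ccl5, at 109, 71.5 and 61.3 FPKM in WT and 252, 373 and 284 FPKM in lin28Tg (log2 fold change 1.87, SE 0.26, adjusted p = 0.000948). Eomes, a T-box factor of memory and NK cells, was at 28.8, 15.7 and 14.9 FPKM in WT and 49.8, 39.8 and 42.5 FPKM in lin28Tg (log2 fold change 1.14, SE 0.25, adjusted p = 0.00769). WT library 1 held more of it than the other WT libraries, as it did of the NK cell markers. Perforin, Prf1, was lower, at 53.4, 52.4 and 53.99 FPKM in WT and 33.8, 36.9 and 29.9 FPKM in lin28Tg (log2 fold change -0.72, SE 0.10, adjusted p = 0.000824), as was the cathepsin inhibitor Cst7 (log2 fold change -0.46, SE 0.12, adjusted p = 0.02). Ifng and Gzmc were not called (1.45 and 0.61), with WT libraries that ranged from 0.0586 to 1.89 FPKM in Ifng and from 5.61 to 13.4 FPKM in Gzmc. How much of these genes came from NK and myeloid cells was not tested.

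Genes of innate-like T cells were higher in 12 of 16 tested, none was lower, and the median was 1.06. Cd160, a receptor of innate-like and memory CD8 T cells, was at 15.6, 19.4 and 19.3 FPKM in WT and 41.4, 37.8 and 34.1 FPKM in lin28Tg (log2 fold change 0.98, SE 0.11, adjusted p = 0.000386). Il17rb, a receptor chain for IL-25, was at 2.83, 2.21 and 2.54 FPKM in WT and 8.44, 9.56 and 6.87 FPKM in lin28Tg (log2 fold change 1.48, SE 0.27, adjusted p = 0.00369). Id2 was at 28.6, 19.02 and 16.05 FPKM in WT and 52.7, 101 and 64.02 FPKM in lin28Tg (log2 fold change 1.68, SE 0.27, adjusted p = 0.00201). Zbtb16, the factor that defines NKT cells, was called higher (0.73). With library 1 alone 2 of 16 were called, Cd160 among them. Of the 12 called, 7 were highest in lin28Tg library 2 and lowest in library 1, as the myeloid markers were. Tyrobp and Fcer1g are also in the myeloid list, and Klrb1c, Eomes and Tyrobp in that of NK cells. The part of such cells in these differences was not tested.

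Of markers of recent thymic emigrants and thymocytes 7 of 18 were lower and 5 higher, beside 15.8% and 19.0% of all tested genes. Without WT library 3 there were 4 lower, and without WT library 2 or WT library 3 there were 3 higher. Dntt, terminal transferase, was at 8.16, 14.1 and 11.3 FPKM in WT and 6.77, 5.78 and 5.20 in lin28Tg (log2 fold change -0.90, SE 0.19, adjusted p = 0.00598). Itm2a was at 11.6, 13.03 and 13.4 FPKM in WT and 7.24, 6.88 and 6.51 FPKM in lin28Tg (log2 fold change -0.89, SE 0.11, adjusted p = 0.000554), and Tox at 22.4, 22.98 and 22.4 FPKM in WT and 15.99, 14.01 and 14.5 FPKM in lin28Tg (log2 fold change -0.65, SE 0.08, adjusted p = 0.000385). In let-7Tg Dntt was at 18.97, 21.8 and 18.7 FPKM and Itm2a at 17.3, 21.1 and 18.2 FPKM, above WT in each library, though neither was called there. Of CD4 T cell markers, Cd4 was at 9.62, 3.61 and 3.13 FPKM in WT and 9.71, 56.4 and 35.9 in lin28Tg, with library 1 close to the highest WT library, and Cd40lg, the helper ligand, was lower, at 7.87, 9.01 and 5.77 FPKM in WT and 2.21, 2.17 and 1.60 FPKM in lin28Tg (log2 fold change -1.73, SE 0.18, adjusted p = 0.00023). In all, 4 of 7 such markers were higher and 2 lower.

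**Figure D4:**
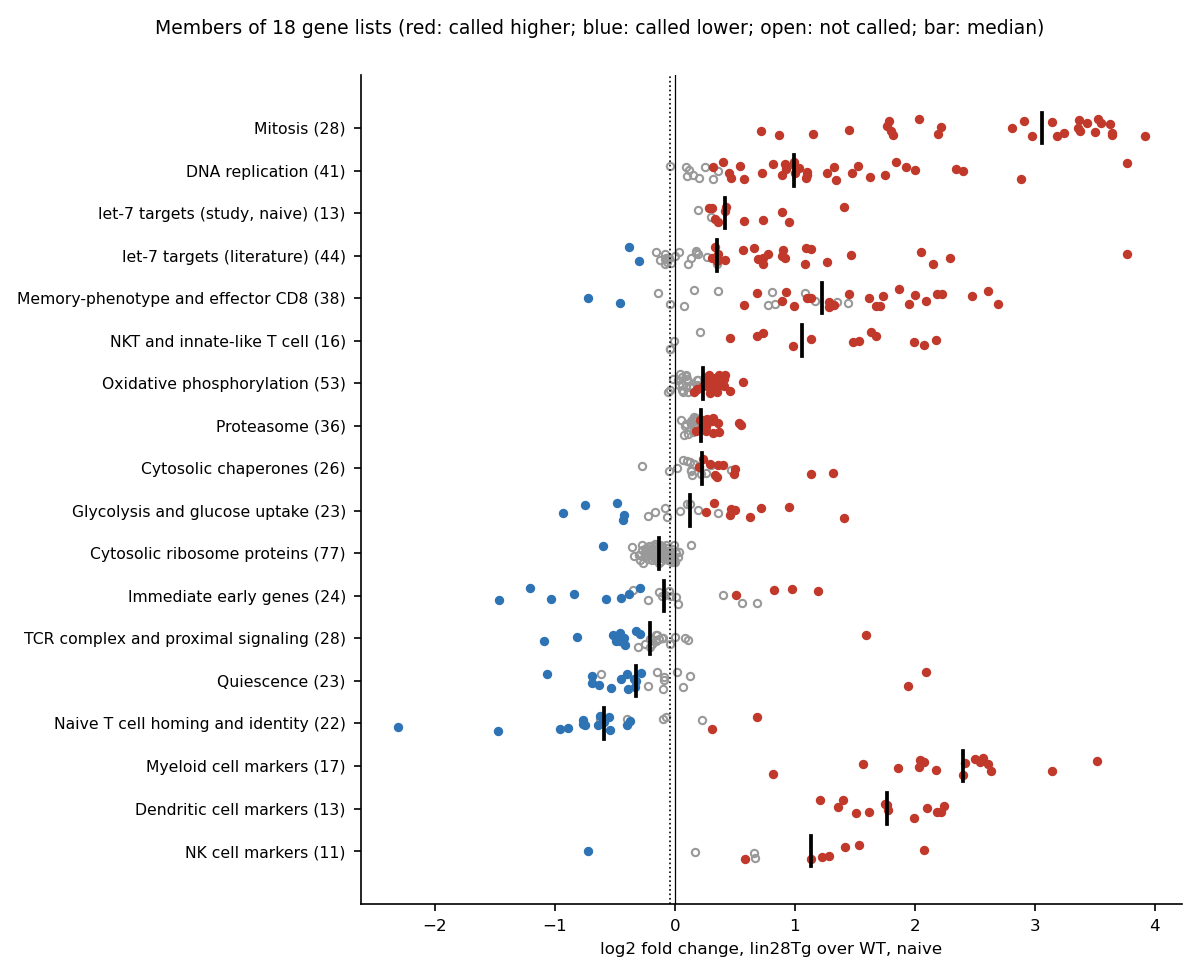
Log2 fold change of lin28Tg over WT for the members of 18 gene lists, with the number tested in parentheses, red and blue for members called higher and lower, open circles for those not called, a bar at the median and a dotted line at the median of all tested genes. Mitosis genes were all higher, ribosome proteins lay close to 0, and quiescence and naive T cell genes were mostly lower.

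Central carbon metabolism showed no common direction. Of 23 genes of glycolysis and glucose uptake 9 were higher and 5 lower, beside 19.0% and 15.8% of all tested genes. Without WT library 3 there were 3 lower. Gapdh was at 918, 863 and 911 FPKM in WT and 1259.8, 1494 and 1231 in lin28Tg (log2 fold change 0.50, SE 0.10, adjusted p = 0.00458), and Pgk1, Pgam1, Tpi1 and Ldha were higher as well (0.47, 0.46, 0.72 and 0.32). The glucose transporters Slc2a1 and Slc2a3 were lower (-0.43 and -0.49), Slc2a1 at 42.6, 39.7 and 46.8 FPKM in WT and 34.2, 32.7 and 32.2 FPKM in lin28Tg, and Slc2a3 at 38.2 to 46.1 FPKM in WT and 31.1 to 32.02 FPKM in lin28Tg. Pdk1, which inhibits pyruvate dehydrogenase, was at 89.9, 87.7 and 96.96 FPKM in WT and 55.1, 45.1 and 49.6 FPKM in lin28Tg (log2 fold change -0.93, SE 0.10, adjusted p = 0.000288), a fall in each library. On library 1 alone 1 gene was higher and 1 lower. Of the pentose phosphate pathway and one-carbon metabolism 10 of 27 were higher and 2 lower, among them Pgd (log2 fold change 0.52, SE 0.09, adjusted p = 0.00227) and Psat1 (log2 fold change 0.56, SE 0.07, adjusted p = 0.000634). Slc16a10, a transporter of aromatic amino acids, was at 9.62, 8.69 and 9.66 FPKM in WT and 20.2, 19.5 and 21.2 FPKM in lin28Tg (log2 fold change 1.03, SE 0.11, adjusted p = 0.000243).

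Subunits of oxidative phosphorylation were higher in 26 of 53 and lower in none, by small amounts, with a median of 0.23 and a largest value of 0.57. Cox6c was at 70.5, 69.8 and 64.996 FPKM in WT and 92.002, 99.6 and 92.8 FPKM in lin28Tg (log2 fold change 0.41, SE 0.06, adjusted p = 0.00151). Without lin28Tg library 2, 10 were called, and with library 1 alone 3, at medians of 0.19 and 0.19. Without WT library 1, 2 or 3 there were 15, 17 and 12. The proteasome was alike, with 17 of 36 higher, none lower and a median of 0.21, and with 7 and 2 called in these alternatives, and 10, 6 and 8 without WT library 2, WT library 3 or lin28Tg library 1. Psmb2, a subunit of its core, was at 83.96, 77.3 and 67.4 FPKM in WT and 108, 131 and 111 FPKM in lin28Tg (log2 fold change 0.55, SE 0.09, adjusted p = 0.00234).

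Of genes of cholesterol and fatty acid synthesis 9 of 33 were lower and 3 higher, beside 15.8% and 19.0% of all tested genes. Srebf2, the factor that induces the pathway, was at 66.6, 70.1 and 74.5 FPKM in WT and 44.7, 47.6 and 49.1 FPKM in lin28Tg (log2 fold change -0.63, SE 0.07, adjusted p = 0.000389), and Srebf1 at 155, 158 and 168 FPKM in WT and 127, 129 and 125 FPKM in lin28Tg (log2 fold change -0.39, SE 0.06, adjusted p = 0.0016). The 1 gene lower on library 1 alone was Srebf2. Without WT library 2, WT library 3 or lin28Tg library 3 the lower genes numbered 4. Antioxidant genes were higher in 13 of 25 and lower in 1, with 8 higher without WT library 1, WT library 2 or lin28Tg library 2 and 3 with library 1 alone. Their summed level was 2741, 2789 and 2753 FPKM in WT and 3412, 6373 and 4103 FPKM in lin28Tg, in the order of the myeloid markers. Hmox1, heme oxygenase, also abundant in macrophages, was at 1.84, 0.882 and 0.955 FPKM in WT and 10.4, 194 and 45.2 FPKM in lin28Tg, with the order of the myeloid markers. Thioredoxin, Txn1, was at 59.2, 48.4 and 44.1 FPKM in WT and 81.7, 131 and 110.2 FPKM in lin28Tg (log2 fold change 1.00, SE 0.15, adjusted p = 0.00154), and Slc7a11, the cystine transporter, at 0.553, 0.320 and 0.263 FPKM in WT and 1.40, 1.20 and 1.28 FPKM in lin28Tg (log2 fold change 1.01, SE 0.18, adjusted p = 0.00326).

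Of 77 ribosomal proteins 1 was lower, Rps27, and none higher, at a median of -0.14. Of 39 translation factors 3 were higher and 1 lower, of 35 genes of ribosome biogenesis 4 and 1, and of 31 tRNA synthetases and amino acid transporters 5 and 1, beside 19.0% and 15.8% of all tested genes. The lower genes of the last list numbered 6 without WT library 1. The higher translation factors numbered 1 without WT library 3 or lin28Tg library 2, and the higher genes of ribosome biogenesis 1 or 2 without any 1 of the WT libraries or lin28Tg library 1. Those higher included Eif5a, at 462, 454 and 431 FPKM in WT and 546, 597 and 549.7 in lin28Tg (log2 fold change 0.27, SE 0.07, adjusted p = 0.0161), Eif4e2 (log2 fold change 0.28, SE 0.07, adjusted p = 0.00998) and Kars (log2 fold change 0.27, SE 0.06, adjusted p = 0.00643). Without scaling between libraries the counts of higher genes in these 3 lists were 10, 9 and 7.

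Genes of protein folding were higher more often than lower, where 19.0% of all tested genes were higher and 15.8% lower. Cytosolic chaperones were higher in 11 of 26 and lower in none, with 7 higher without WT library 2 and 6 without lin28Tg library 1, and genes of the endoplasmic reticulum higher in 22 of 65 and lower in 3. Hsp90b1 was at 112, 101 and 95.7 FPKM in WT and 164, 171 and 169.9 FPKM in lin28Tg (log2 fold change 0.65, SE 0.06, adjusted p = 0.000153). Hspa5, the chaperone BiP, was at 268, 248 and 213 FPKM in WT and 396, 385 and 376 FPKM in lin28Tg (log2 fold change 0.61, SE 0.08, adjusted p = 0.000728), and the disulfide isomerase Pdia6 at 82.2, 76.5 and 69.7 FPKM in WT and 130.2, 155 and 129 FPKM in lin28Tg (log2 fold change 0.79, SE 0.09, adjusted p = 0.000319). All 3 were called with library 1 alone, with 7 genes of each list.

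Of 16 genes of the BCL2 family and of cell death 7 were higher and 1, Trp53inp1, was lower, beside 19.0% and 15.8% of all tested genes. The higher genes were of both kinds, with Pmaip1, Bad, Bmf and Bak1, which promote death (0.85, 0.36, 0.52 and 0.42), beside Bcl2l1, Bcl2a1b and Bcl2a1d, which oppose it. Without WT library 2, WT library 3, lin28Tg library 2 or lin28Tg library 3 the higher genes numbered 4, 3, 4 and 4, and with lin28Tg library 1 alone there was 1. Bcl2l1, which encodes Bcl-xL, was at 13.2, 11.01 and 12.7 FPKM in WT and 19.3, 27.02 and 18.1 FPKM in lin28Tg (log2 fold change 0.70, SE 0.15, adjusted p = 0.00668). Bcl2a1d was at 6.84, 4.27 and 3.94 FPKM in WT and 17.4, 24.3 and 19.5 FPKM in lin28Tg (log2 fold change 1.89, SE 0.25, adjusted p = 0.000855), in a family of near-identical copies among which reads can be split. Bcl2 and Mcl1 were not called (-0.40 and -0.04). The cytokine signaling genes Il4ra, Stat5a and Stat5b were lower (-0.50, -0.24 and -0.49), and of all 20 tested genes that the study names for naive cells 11 were higher and 3 lower. Interferon response genes were higher in 6 of 40 and lower in 1, beside 19.0% and 15.8% of all tested genes. Ifitm2 and Ifitm3 were highest in lin28Tg library 2. The summed level of the interferon response genes was 5039, 3555 and 2818 FPKM in WT and 4423, 3486 and 3929 FPKM in lin28Tg. The groups overlapped, with WT library 1 the highest of all. Without WT library 1 there were 10 higher and none lower, and without WT library 2 or WT library 3 there were 3 higher.

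By position, the share of tested genes called ran from 28.3% on chromosome 17 to 41.4% on chromosome 6 among the autosomes, around 34.9% over all, and was 1 of 12 genes on the mitochondrial chromosome. In the region of the major histocompatibility complex on chromosome 17 it was 29.8% of 151 genes. Of 31 listed genes of that region 10 were lower and 4 higher, with H2-Ob at 33.8, 33.6 and 37.4 FPKM in WT and 18.6, 16.2 and 18.3 FPKM in lin28Tg (log2 fold change -1.02, SE 0.09, adjusted p = 9.91e-05), and the classical H2-K1 and H2-D1 at log2 fold changes of -0.13 and -0.06, not called. The direction of the listed genes depended on WT library 1, without which 6 were lower and 8 higher. Without WT library 2, lin28Tg library 2 or lin28Tg library 3 the lower genes numbered 5, 6 and 5.

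Among the genes with the smallest adjusted p, several belong to no list. Patj, a scaffold of cell polarity, was at 21.5, 24.6 and 23.1 FPKM in WT and 8.99, 6.73 and 7.81 FPKM in lin28Tg (log2 fold change -1.56, SE 0.11, adjusted p = 3e-05). Sntb1, a syntrophin, was at 22.1, 19.8 and 21.9 FPKM in WT and 8.75, 7.03 and 7.24 FPKM in lin28Tg (log2 fold change -1.48, SE 0.10, adjusted p = 2.89e-05). Cd55, which restrains complement, was at 29.7, 26.5 and 27.9 FPKM in WT and 11.7, 13.1 and 14.8 FPKM in lin28Tg (log2 fold change -1.12, SE 0.09, adjusted p = 6.16e-05). The replicates of each group lay close together, which the choice by small adjusted p favors. Pecam1, an adhesion receptor listed with the endothelial markers, was at 62.4, 63.7 and 63.2 FPKM in WT and 38.2, 38.5 and 38.5 FPKM in lin28Tg (log2 fold change -0.77, SE 0.05, adjusted p = 3.06e-05), Cyp4f13 at 39.7, 41.5 and 41.2 FPKM in WT and 24.5, 22.8 and 23.9 FPKM in lin28Tg (log2 fold change -0.83, SE 0.06, adjusted p = 4.23e-05) and Gm14085 at 79.8, 83.8 and 84.8 FPKM in WT and 29.1, 22.7 and 27.4 FPKM in lin28Tg (log2 fold change -1.70, SE 0.11, adjusted p = 2.73e-05). The pseudogene Bambi-ps1 and Gm11346 were lower too (-1.34 and -1.06).

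Of the 5 largest rises by fold, Lin28b was 1. Marco, a receptor of marginal zone and medullary macrophages, was at 0.166, 0.308 and 0.185 FPKM in WT and 8.45, 179 and 79.7 FPKM in lin28Tg (log2 fold change 6.10, SE 0.97, adjusted p = 0.00198). Cd209b and Cbr2, also of macrophages, had the same order of libraries, Cd209b at 9.12, 173 and 81.6 FPKM and Cbr2 at 6.72, 80.2 and 31.8 FPKM in lin28Tg. The last, Gm47283, was at 6.06, 0.0927 and 0.0926 FPKM in WT, 116, 88.7 and 109 FPKM in lin28Tg and 54.8, 99.9 and 132 FPKM in let-7Tg. WT stood apart there, with both transgenic groups high.

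In let-7Tg against WT, which shares the WT libraries, 40 genes were higher (0.301%) and 84 lower (0.633%). The mitosis genes had a median of -0.22, with none called, and the replication genes -0.14, with 1 lower. The 13 targets named by the study had a median of -0.50, with 5 lower, as their selection requires, and those from the literature -0.11, with 3 of 44 lower. Cdca7, Uhrf1 and Pgam1 were called in both comparisons, at 1.90, 2.34 and 0.46 in lin28Tg and -0.59, -0.70 and -0.55 in let-7Tg. Myc was lower in let-7Tg (-0.62, adjusted p = 0.0139). Cd247, Il6st and Trac had let-7Tg values of 0.08, -0.07 and -0.13 and were not called there.

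The lin28Tg difference of naive cells was set beside that of other libraries of the series, from cells activated for 12 h and from day 5 CTLs, where 746 (6.10%) and 265 (2.03%) genes were higher and 292 (2.39%) and 301 (2.31%) lower. Of 1987 genes higher in naive cells and tested at 12 h, 452 were higher and 11 lower there, and of 1960 lower in naive cells 160 were lower and 15 higher. In CTLs 129 of 1974 were higher and 28 lower, and 136 of 2029 were lower and 7 higher. Per the labels, the cells activated for 12 h had anti-CD3, anti-CD28 and doxycycline in culture. The CTLs had anti-CD3, IL-2 and doxycycline, and none of these is listed for naive cells. The stages thus also differ in stimulus, cytokine and doxycycline in culture, and the part of each was not tested. A fit of all 27 libraries tested the difference between stages. The lin28Tg difference of naive cells differed from that at 12 h in 1146 of 14320 genes, more positive in naive cells in 846 (5.91%) and more negative in 300 (2.09%), or in 616 to 700 genes in all without lin28Tg library 2, WT library 3 or WT library 2. From that of CTLs it differed in 2143, more positive in 1673 (11.7%) and more negative in 470 (3.28%).

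Mitosis genes were higher in lin28Tg in 27 of 28 cases at 12 h, with a median of 2.04, and in none in CTLs, with a median of -0.09. The stages differed in 10 of 28 genes between naive cells and 12 h and in all 28 between naive cells and CTLs. Mki67 had means of 0.848 FPKM in WT and 7.15 FPKM in lin28Tg at 12 h, and of 142 and 127 FPKM in CTLs, so that the level of lin28Tg naive cells lay between that of WT naive cells and that of dividing CTLs. Of replication genes 11 of 41 were higher at 12 h and none in CTLs, and 28 of 41 differed between naive cells and CTLs.

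Other naive differences were found at every stage. Cd247 had means of 28.6 FPKM in WT and 134 FPKM in lin28Tg at 12 h and of 81.7 and 292 FPKM in CTLs (log2 fold changes 2.20 and 1.88, adjusted p = 4.42e-05 and 1.19e-05). Cdc34 was higher at both later stages (0.80 and 1.02), as was Gng5 (0.61 and 0.93). Il6st and Dapl1 were lower at both (-1.09 and -1.16, -1.86 and -4.58). Lin28b itself had means of 10.9 FPKM in lin28Tg at 12 h and 19.4 FPKM in CTLs, below the 56.4 to 67.9 FPKM of naive cells. Of naive T cell genes 5 of 22 were lower at 12 h and 11 of 21 in CTLs, at medians of -0.27 and -1.34. The 44 and 45 tested targets from the literature had medians of 0.40 and 0.36, with 18 and 10 higher.

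**Figure D5:**
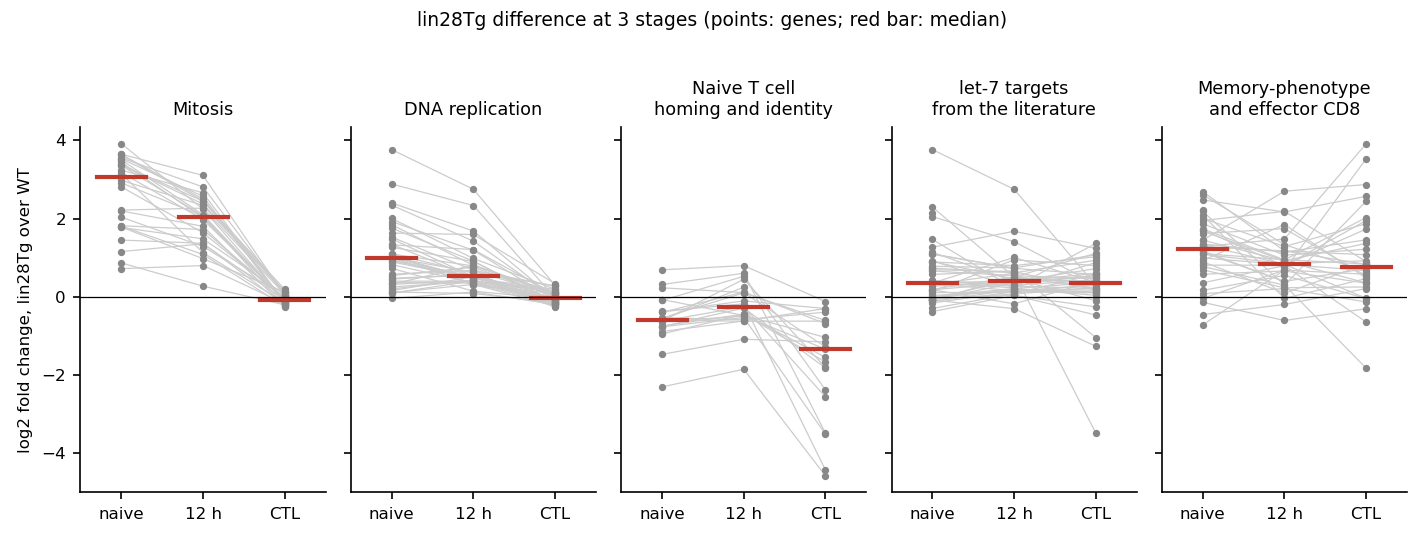
Log2 fold change of lin28Tg over WT for the members of 5 gene lists in naive cells, at 12 h of activation and in day 5 CTLs, with lines joining the same gene and a red bar at the median. The mitosis and replication differences had their highest medians in naive cells and medians near 0 in CTLs, while the let-7 targets from the literature had medians from 0.35 to 0.40.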

How the data were processed

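RNA of naive CD8 T cells was sequenced as paired ends in 3 libraries of each genotype. Per the labels and the methods, the authors aligned reads to GRCm38 with TopHat2 2.0.9 and Bowtie2 2.0.6, counted them per gene with HTSeq 0.6.1 and computed FPKM, fragments per kilobase and library size, with no scaling between libraries. These deposited FPKM values were used here. The deposited group means, fold changes, p-values and heatmap clusters of the authors' own comparisons were not used. Whole reads were recovered from the FPKM steps (462839 of 462839 values above 0 came out whole within 0.001 reads) and gave the depth, 13862706 to 23591069 reads in the naive libraries. Intervals and floors cover counting error only.

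FPKM were scaled by a trimmed mean of log ratios, trimming 30% of ratios and 5% of levels at each end, among the 9 naive libraries. Genes entered with the equivalent of 10 reads at median depth in 3 or more libraries and 15 reads over all 9. log2(FPKM + 0.5) was fitted with limma 3.58.1 in R 4.3.3, with 1 term per genotype and an intensity trend, two-sided, with Benjamini-Hochberg adjustment over all tested genes and a threshold of 0.05. Stages were compared in 1 model of all 27 libraries. The test was checked on simulated data. The sources do not say how many mice are behind a library, so p-values measure the spread between these libraries. Each lin28Tg library held both Xist and Ddx3y RNA, whereas each WT and let-7Tg library was high in only 1 of them. The spread between replicates may thus not be of the same kind in the groups. Positions and 3′ UTRs are those of GENCODE M21, and miRNAs those of RefSeq.

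The members and the 37 gene lists were chosen with earlier results of these data known. Genes named are Lin28a and Lin28b, those the study names for naive cells, the 12 smallest adjusted p-values without overlap and the 5 largest changes in each direction, up to 4 called members of each list and direction, the 5 smallest adjusted p-values of each comparison of stages that were also called in naive cells, and markers of other cells at a mean of 1 FPKM or more. Further list members given by a log2 fold change alone, and Xist, Ddx3y and Alb, were chosen after their values were seen. Alternatives were the scaling, filter, pseudocount, libraries, replicate block, variance trend and limma with voom weights on the recovered reads. A few genes that this rule would name are not reported here.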

Additional observations from a re-analysis of the deposited data

Results flagged for a closer look

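The results below were singled out because the difference between lin28Tg and WT differed between stages, tested as an interaction in the limma fit of 27 libraries with Benjamini-Hochberg adjustment. The stages also differ in stimulus, cytokine and doxycycline in culture, and the part of each was not tested. Between naive cells and 12 h of activation 1146 genes differed in this way, of which 958 were DEGs in naive cells, and 2937 had an unadjusted p below 0.05. Between naive cells and CTLs 2143 differed, of which 1661 were DEGs in naive cells, and 3780 had an unadjusted p below 0.05.

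Among the genes with the smallest adjusted p between naive cells and 12 h, Lin28b had a difference of the log2 differences of 2.27 (adjusted p = 2.8e-07), with lower levels of the transgene after activation. Fam83a, at 2.28, 2.52 and 2.77 FPKM in naive lin28Tg and 0.249, 0.139 and 0.139 FPKM in naive WT, differed by 1.88 (adjusted p = 2.1e-07) and was at 0.118 FPKM or less on average in both groups at 12 h. Jade2 differed by -1.34 (adjusted p = 5.1e-07), lower in lin28Tg in naive cells (-0.65) and higher at 12 h (0.73). A530021J07Rik differed by -2.19 (adjusted p = 6.1e-06), lower in lin28Tg in naive cells and listed at 0 in both groups at 12 h. Serpina3n differed by 1.37 (adjusted p = 6.1e-06), with naive WT and both groups at 12 h listed at 0 and naive lin28Tg at 0.983, 1.05 and 0.574 FPKM, so that the fitted value depends on the pseudocount.

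Between naive cells and CTLs the genes with the smallest adjusted p were of the cell cycle but for 1. Stmn1 differed by 3.91 (adjusted p = 2.4e-08), Pclaf by 4.07 (adjusted p = 4.4e-08), E2f2 by 3.01 (adjusted p = 4.4e-08) and Ccna2 by 3.62 (adjusted p = 1e-07). Fam83a differed by 2.01 (adjusted p = 4.4e-08).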

How the results depend on the processing

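No named gene that was called changed its direction under any alternative run, whereas Myc and Klra9, which were not called, did under some. Of 250 tested named genes 206 to 249 kept their side of the threshold under each alternative planned. Lower DEGs numbered 1181 to 2236 when 1 library was left out, with 1181 without WT library 2, 1243 without WT library 3 and 1380 without lin28Tg library 2, and higher DEGs 1829 to 2546. In a fit with lin28Tg library 1 alone, chosen after seeing the data and with that sample assumed to vary like the others, there were 661 higher and 353 lower, 3 of the let-7 targets named by the study were higher, and 122 of 250 named genes kept their call. The count of genes that differed between naive cells and 12 h was 696 with a pseudocount of 0.1 and 616 to 1494 with 1 naive library left out, with 616 without lin28Tg library 2, 623 without WT library 3 and 700 without WT library 2. Its counterpart for CTLs stayed at 1591 to 2307. With the replicate number as a block there were 2562 higher and 2238 lower, and 1488 and 2746 genes differed between stages. The correlations of the deviations of same-numbered WT and lin28Tg libraries from their group means were -0.153, -0.0548 and 0.0356. Those of same-numbered WT and let-7Tg libraries were 0.475, 0.216 and 0.0612, and WT library 3 and let-7Tg library 2 had 0.291. Whether same-numbered libraries shared a batch cannot be told from these values. Without a filter on low values 4281 of 22527 genes were called. With voom weights on recovered reads 2414 were higher and 2148 lower. The log2 fold change of Lin28b ran from 5.96 to 9.06 with the pseudocount, because WT is at the floor. Of 62 counts over gene lists, 28 moved by over 1.5 times without WT library 2 and 25 without WT library 3. Without lin28Tg library 2 it was 20, without scaling 15, and with lin28Tg library 1 alone 54. Genes of few reads are limited by depth, since 3 reads on a gene of 2 kb are 0.0636 to 0.106 FPKM in the 6 libraries.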
